A study of Homo sapiens with 54 samples.

Results

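GREB1, TFF1, XBP1, IGFBP4, PDZK1 and RARA, 6 genes known to respond to estrogen and chosen by symbol, were described in T47D cells given ethanol as vehicle or R5020 for 1 h. The choice was made with earlier results of these data known. R5020 is a synthetic progestin, a ligand of the progesterone receptor (PR). T47D is an established human breast cancer line labelled as positive for the estrogen receptor and PR. The members were the 6 genes of 20033 protein-coding genes in the RefSeq table, and the data were the rows of 16 peak lists within 50 kb of each gene span, 799 of 518593 rows in all. The lists came from chromatin immunoprecipitation followed by sequencing (ChIP-seq) for 8 targets: PR, acetylated lysine 27 of histone H3 (H3K27Ac), Maf1, POLR3A, Brf1, POLR3C, POLR3G and POLR3GL. Each target and treatment had 3 libraries and 1 list, and 6 input libraries completed the 54 libraries. Both groups grew in the same medium with fetal bovine serum and insulin, no estrogen treatment is named in the labels, the estrogen receptor was not one of the 8 targets, and the labels used here give no dose of R5020. With 1 list per group there was no replicate error and no test of treatment, so counts are given as they stand, and Wilson 95% intervals on shares cover counting error only. Peak lists do not measure expression, and a bulk list cannot tell more bound cells from more binding per cell.

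The 6 genes are textbook targets of estrogen in luminal breast cancer cells. The estrogen receptor and PR are ligand-activated transcription factors that bind DNA response elements, often at enhancers far from the gene start, and H3K27Ac marks active enhancers and promoters. Maf1 represses RNA polymerase III, the enzyme that transcribes tRNA genes. POLR3A, POLR3C, POLR3G and POLR3GL are subunits of that polymerase, and Brf1 belongs to its initiation factor. The series title concerns Maf1 and PR at tRNA genes. The question here is what the same lists hold at genes known for another steroid hormone.

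The depth of the libraries is not held in the lists. On chromosomes 1 to 22, X and Y the PR list had 6663 regions with vehicle and 173129 with R5020, the Maf1 list 3049 and 22683, the H3K27Ac list 88870 and 112543, and the POLR3G list 58424 and 46875. The luminal label was checked on H3K27Ac within 1 kb of marker genes or at their start: all 9 luminal markers, ESR1 and PGR among them, had a region in both treatments, and KRT5, KRT14 and TP63 of basal cells had none. Of 10 markers of other cell types, the basal ones included, 3 had a region with vehicle (CD3E, COL1A2 and CDH5) and 2 with R5020 (PECAM1 and CDH5). The part of those cell types in the results was not tested. Markers with a listed start, KRT5 and TP63 among them, were checked there, and the others over the gene and 1 kb around it. That wider span was used for KRT18, KRT19, EPCAM, CDH1 and KRT14, and for CD3E, COL1A2, CDH5 and PECAM1. The marker groups were thus not checked alike, and the share of all genes with a region was not counted.

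Promoter sequences were matched by symbol for 4 of the 6 genes in the RefSeq promoter table (GRCh38.p14). Of their 8 listed starts 7 had a PR region over the promoter in at least 1 treatment, counting a few bases past the start. The share over all promoters of the table was not counted, so the 7 cannot be set against a background. The PR folds there ran from 2.62 to 5.27, and those with R5020 were below the median of their list, 5.90. The 5 shown are among these, and the second starts of XBP1 and PDZK1 are not shown. Each is the 250 bases before an annotated start, on the gene's own strand. Capitals mark the estrogen half-site GGTCA and the progesterone half-site AGAACA, searched on both strands (TGACC and TGTTCT on the other).
XBP1 (chr22:28800570-28800819, minus strand): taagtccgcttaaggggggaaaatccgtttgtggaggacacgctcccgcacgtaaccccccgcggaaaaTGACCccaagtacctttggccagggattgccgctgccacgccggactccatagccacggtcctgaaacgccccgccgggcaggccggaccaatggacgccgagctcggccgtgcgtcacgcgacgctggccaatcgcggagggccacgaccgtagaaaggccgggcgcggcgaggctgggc
RARA, first start (chr17:40308930-40309179, plus strand): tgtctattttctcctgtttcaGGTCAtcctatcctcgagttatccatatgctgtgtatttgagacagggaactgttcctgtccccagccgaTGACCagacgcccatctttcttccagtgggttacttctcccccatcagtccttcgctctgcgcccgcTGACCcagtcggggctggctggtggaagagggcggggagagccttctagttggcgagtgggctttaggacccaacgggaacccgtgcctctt
RARA, second start (chr17:40317995-40318244, plus strand): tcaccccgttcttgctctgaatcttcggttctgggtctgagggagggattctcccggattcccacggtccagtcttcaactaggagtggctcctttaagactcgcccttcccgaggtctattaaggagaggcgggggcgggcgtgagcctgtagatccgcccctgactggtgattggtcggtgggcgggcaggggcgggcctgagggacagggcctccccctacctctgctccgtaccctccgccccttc
IGFBP4 (chr17:40443200-40443449, plus strand): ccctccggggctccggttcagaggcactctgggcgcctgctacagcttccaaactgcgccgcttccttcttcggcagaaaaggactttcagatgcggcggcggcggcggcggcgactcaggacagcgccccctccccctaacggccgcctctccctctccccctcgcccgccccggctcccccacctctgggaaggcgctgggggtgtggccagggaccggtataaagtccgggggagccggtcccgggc
PDZK1 (chr1:145707401-145707650, minus strand): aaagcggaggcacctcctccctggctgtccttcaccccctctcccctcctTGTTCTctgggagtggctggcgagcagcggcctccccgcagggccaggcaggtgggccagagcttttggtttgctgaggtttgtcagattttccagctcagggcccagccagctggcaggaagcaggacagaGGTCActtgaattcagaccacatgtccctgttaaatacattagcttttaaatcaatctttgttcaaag

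The XBP1 promoter held 1 estrogen half-site, the first RARA promoter held 3, and the PDZK1 promoter held 1 estrogen and 1 progesterone half-site. The second RARA promoter and the IGFBP4 promoter held neither. The estrogen half-site occurred in 32.6% of the 35116 promoter windows of that length in the table, and the progesterone half-site in 12.4%. No printed promoter held the full estrogen response element GGTCANNNTGACC, present in 0.0399% of all windows, or the full progesterone response element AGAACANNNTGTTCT, present in 0.00285%. The half-sites lie within those full elements, and a match is only a match of letters. The GC box GGGCGG occurred 5 times in the second RARA promoter and in 42.6% of all windows, and the CCAAT box 2 times in the XBP1 promoter and in 32.0%.

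PR was called near 5 of the 6 genes before any progestin was given, and near all 6 with R5020. Over the 6 windows there were 27 vehicle and 166 R5020 PR regions. By gene the vehicle and R5020 counts were 8 and 70 at GREB1, 9 and 30 at XBP1, 5 and 27 at RARA, 4 and 12 at IGFBP4, 1 and 13 at TFF1, and 0 and 14 at PDZK1. XBP1 and GREB1 thus had the most vehicle regions, and GREB1, whose window of 259.9 kb is the longest of the 6, the most R5020 regions. Per 100 kb the R5020 order was XBP1 28.3, GREB1 26.9, RARA 18.2, TFF1 12.5, IGFBP4 10.5 and PDZK1 10.3. A vehicle region lay near 38.1% of all protein-coding genes, against 5 of 6 here. An R5020 region that overlapped no vehicle region lay near 96.9% of all protein-coding genes, so its presence at 6 of 6 is close to the background. The median gene had 12 R5020 PR regions and the median of the 6 was 20.5. IGFBP4, TFF1 and PDZK1 were near the median gene, at percentiles 50.6, 55.2 and 59.4. The medians of 2 lists described below were 20.0 (23 other estrogen-responsive genes) and 27.5 (6 progestin-responsive genes).

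**Figure D1:**
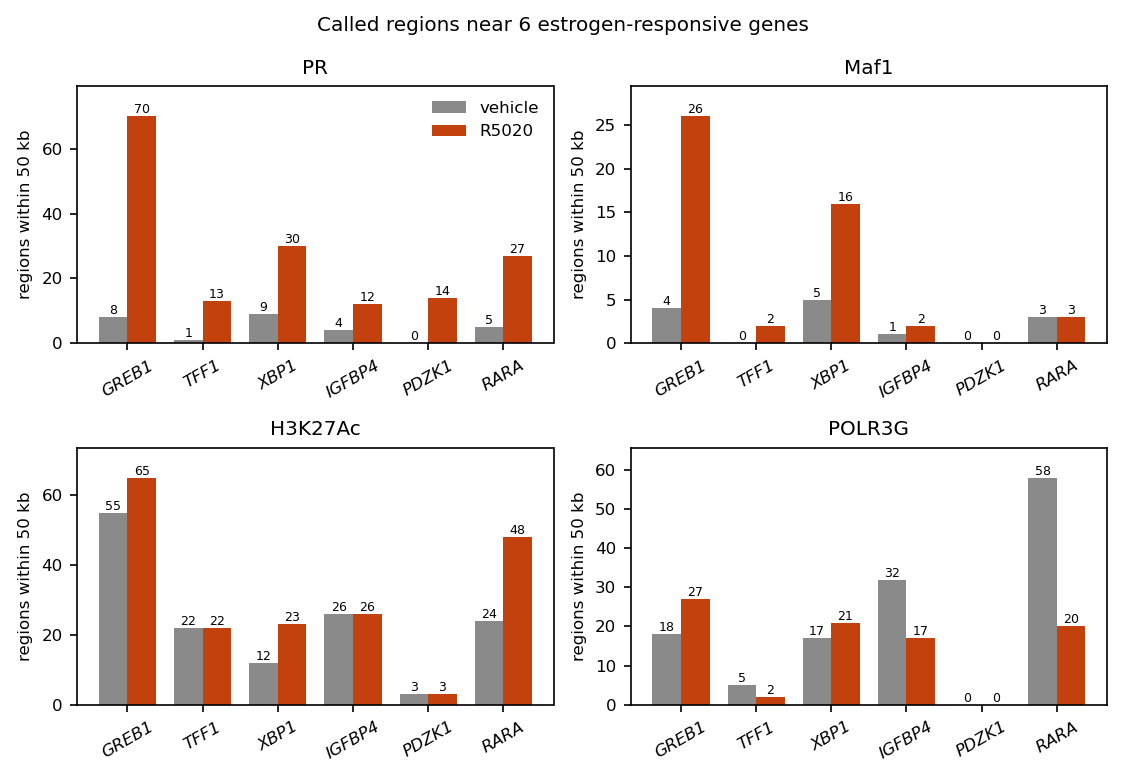
Number of called regions within 50 kb of each gene span (y axis) for PR, Maf1, H3K27Ac and POLR3G, with vehicle in grey and R5020 in orange; each bar is 1 list that stands for 3 libraries, so there are no error bars. PR counts are higher with R5020 at all 6 genes, while POLR3G counts are lower at RARA (58 and 20) and IGFBP4 (32 and 17).

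The PR difference moved with the length of the lists. When the 6663 regions of highest -log10 q were taken from each PR list, the 6 windows held 27 vehicle and 23 R5020 regions, or 0.405% and 0.345% of the regions taken. By gene these were 8 and 13 at GREB1, 9 and 8 at XBP1, 5 and 1 at RARA, 4 and 0 at IGFBP4, 1 and 1 at TFF1, and 0 and 0 at PDZK1. An R5020-only PR region was then found at 3 of the 6 genes (GREB1, TFF1 and XBP1). The window also sets the count: within 10 kb there were 19 vehicle and 114 R5020 PR regions, and within 100 kb 30 and 231.

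At 4 of the 6 genes a vehicle PR region lay near the top of its list. The fold of a region is the authors' enrichment over background and is compared here only within a list. The highest vehicle folds were 49.1 at RARA, 39.2 at GREB1, 37.8 at XBP1, 34.2 at IGFBP4 and 11.3 near TFF1, and PDZK1 had no vehicle region. The RARA region was 3rd of the whole vehicle list by -log10 q, and the highest-ranked regions near GREB1, XBP1 and IGFBP4 were 15th, 18th and 19th. A vehicle PR region with a fold of at least 20, a line drawn after the values were seen, lay near 4 of the 6 genes and near 0.519% of all protein-coding genes (104 of 20033). The vehicle list held 101 such regions, 7 of them in the 6 windows. With R5020 a fold of at least 20 was reached near 5 of the 6 genes and near 64% of all genes, so the same line separated little there. The 6 genes and the gene lists compared below were chosen with earlier results of these data known. These shares are therefore a description and not a test.

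**Figure D2:**
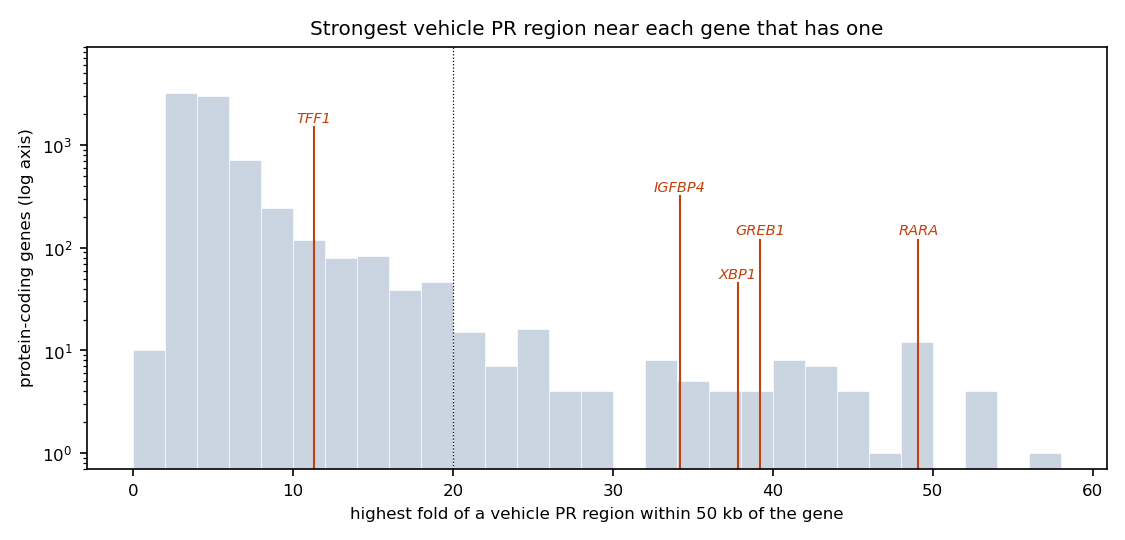
Histogram of the highest fold of a vehicle PR region within 50 kb (x axis) over the protein-coding genes that have one (y axis, log scale), with the 5 genes of the set that have one marked by orange lines whose heights carry no value; the dotted line is a fold of 20. RARA, GREB1, XBP1 and IGFBP4 lie right of the line and TFF1, at 11.3, lies left of it.

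Of 23 other genes known to respond to estrogen, 18 had a vehicle PR region and 2, CTSD and MYB, had one with a fold of at least 20. Their highest vehicle fold was 25.5 and their median, counting 0 where there was no region, 4.59, against a median of 36.0 for the 6 genes. Of 6 genes known to respond to progestins and glucocorticoids (FKBP5, ZBTB16, TSC22D3, PER1, KLF9 and SGK1), 4 had a vehicle PR region and none reached a fold of 20, with a highest fold of 6.95. An R5020-only PR region lay near 23 of the 23 and 6 of the 6 genes of these lists.

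Of the 27 vehicle PR regions 25 overlapped an R5020 region (92.6%, interval 76.6 to 97.9), close to the 91.6% (90.9 to 92.2) of the whole vehicle list. Between overlapping regions the median distance of the summits, the points of highest signal, was 52 bp, and 15 of the 25 lay within 100 bp. Of the regions without an R5020 partner, one lay at the start of IGFBP4 (chr17:40443373-40443535, fold 2.86) and one inside RARA (chr17:40321200-40321558, fold 4.63). Their folds were at percentiles 9.57 and 66.4 of the vehicle list. A vehicle-only PR region lay near 2 of the 6 genes and near 4.91% of all protein-coding genes.

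**Figure D3:**
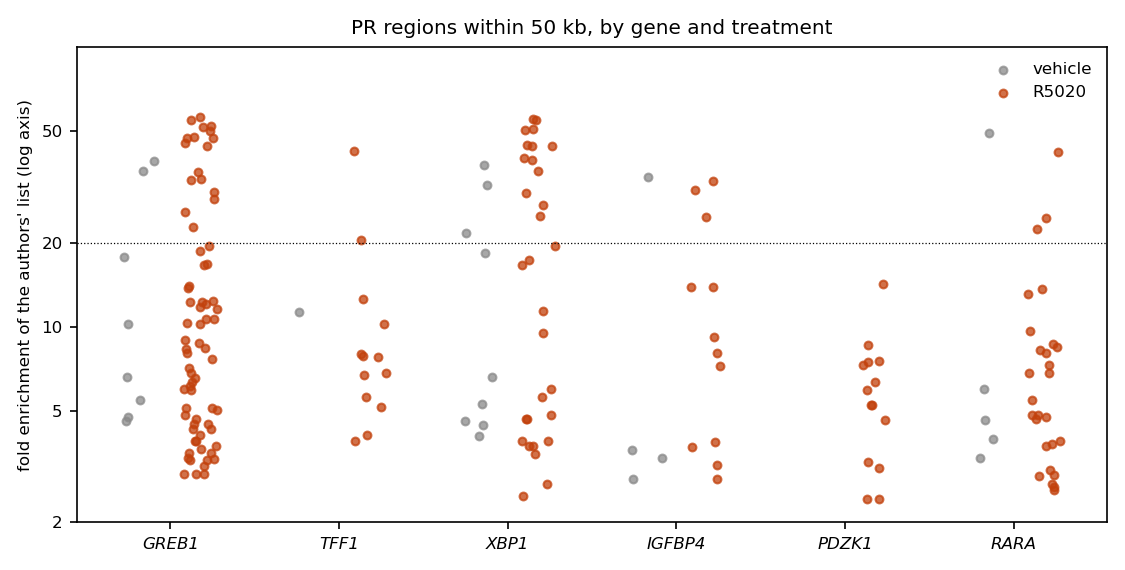
Fold enrichment of each PR region within 50 kb of the 6 genes (y axis, log scale) by gene and treatment; each point is 1 region, vehicle in grey and R5020 in orange, and the dotted line is a fold of 20. Vehicle points above the line occur at GREB1, XBP1, IGFBP4 and RARA, R5020 points above it at those genes and TFF1, and PDZK1 has R5020 points alone, up to 14.2.

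GREB1, a chromatin-bound cofactor of the estrogen receptor that supports hormone-dependent growth, carried the most PR regions (chr2:11482888-11642788). Its vehicle folds ran from 4.59 to 39.2, with 2 regions above 20, both inside the gene: chr2:11539299-11540196 (fold 39.2) and chr2:11498383-11499060 (fold 35.9). The R5020 regions over them had folds of 44.4 and 52.1 in their own list. A vehicle region of fold 5.49 lay across the low-coordinate end of the gene, where the H3K27Ac region of highest -log10 q also lay in both treatments. With R5020 the folds ran from 2.99 to 56.1, and 17 of the 70 regions reached 20. The 3 highest-ranked R5020-only regions were all inside the gene: chr2:11507957-11509049 (fold 56.1), chr2:11546166-11547245 (fold 55.0) and chr2:11574447-11575251 (fold 47.1). The first and second lay under vehicle H3K27Ac regions, and the region of fold 47.1 only under R5020 H3K27Ac regions. R5020 Maf1 regions lay over all 3, and over 15 of the 62 R5020-only PR regions of the window.

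XBP1, a transcription factor of the unfolded protein response and of secretory cells, had PR regions on both sides (chr22:28794560-28800569). Beyond its high-coordinate end, which is its start because the gene is on the minus strand, lay 6 of its 9 vehicle and 15 of its 30 R5020 regions. The strongest vehicle regions lay 13.3, 19.1 and 22.5 kb from the gene, with folds of 37.8 (chr22:28813283-28814296), 32.1 (chr22:28818072-28820189) and 21.7 (chr22:28822838-28823657). The R5020 regions over them had folds of 50.5, 44.4 and 55.5. At the printed promoter PR had a fold of 4.44 with vehicle and 4.68 with R5020, percentiles 62.6 and 36.1 of their lists. The H3K27Ac region there was the gene's strongest (30.6 and 34.2). With R5020, 13 of the 30 PR regions reached a fold of 20, the highest share of the 6 genes. The R5020-only regions of highest rank lay on both sides of the gene, 34.4 kb (fold 54.9) and 10.3 kb (fold 50.8, in CCDC117) beyond its low end and 29.4 kb (fold 44.1) beyond its high end.

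RARA, the retinoic acid receptor alpha, had its main PR region 13.3 kb into the gene (chr17:40309180-40357643). That region, chr17:40321702-40322809, had a fold of 49.1 with vehicle. The R5020 region over it had a fold of 42.2, and the summits lay 1 bp apart. The other 4 vehicle regions were all inside the gene with folds of 3.39 to 6.00. At the second printed promoter PR had folds of 3.39 with vehicle and 2.62 with R5020, and at the first a fold of 3.74 with R5020 alone. With R5020, 3 of 27 PR regions reached a fold of 20, and the highest-ranked R5020-only region lay 15.8 kb beyond the gene (chr17:40373189-40373817, fold 24.5). RARA and IGFBP4 are neighbours 85.8 kb apart. Their windows share 14.2 kb, with 1 H3K27Ac region per treatment and no PR, Maf1 or POLR3G region in the shared stretch.

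IGFBP4, a secreted protein that binds insulin-like growth factors, had 1 strong vehicle PR region 5.39 kb past its start (chr17:40448575-40449167, fold 34.2). The R5020 region over it had a fold of 30.9, and the summits lay 29 bp apart. The other 3 vehicle regions had folds of 2.86, 3.39 and 3.62. With R5020 the region of highest rank was a different one, 20.3 kb before the gene (chr17:40422919-40423567, fold 33.3), with no vehicle PR region. A further strong R5020 region lay 2.03 kb past the far end of the gene (fold 24.6), without H3K27Ac in either list.

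TFF1, a small secreted trefoil peptide also known as pS2, had little PR at the gene itself (chr21:42362282-42366535). Its single vehicle PR region lay 9.93 kb away in the neighbouring gene TMPRSS3 (chr21:42376312-42376649, fold 11.3), and an R5020 region of fold 12.6 had its summit 3 bp from it. With R5020 1 of the 13 regions overlapped TFF1, across its high-coordinate end (chr21:42366319-42366561, fold 4.10), with no H3K27Ac region over it in either list. The 2 strong R5020 regions, both R5020-only, lay 24.8 kb (fold 42.4, in TMPRSS3) and 32.3 kb (fold 20.4) from the gene. H3K27Ac overlapped TFF1 itself with vehicle alone, in 1 region (chr21:42364544-42365019, fold 3.62). Both folds were below the median of their list, which was 3.66 for vehicle H3K27Ac and 5.90 for R5020 PR.

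PDZK1, a scaffold protein that anchors membrane transporters, had 14 PR regions with R5020 and none with vehicle (chr1:145670852-145707400). Their folds ran from 2.43 to 14.2 with a median of 5.62, and the highest lay 40.7 kb away in RNF115. Of the 14, 4 overlapped the gene, including one across its start (chr1:145707209-145707408, fold 5.27). That region covers only the last few bases of the printed promoter and neither of its marked half-sites. PDZK1 stood apart from the other members in H3K27Ac: 3 regions per treatment, none of them in the gene, covering 1.49 kb with vehicle and 1.27 kb with R5020. Of the 14 PR regions 13 lay outside H3K27Ac of either treatment. No Maf1 or POLR3G region lay in its window.

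**Figure D4:**
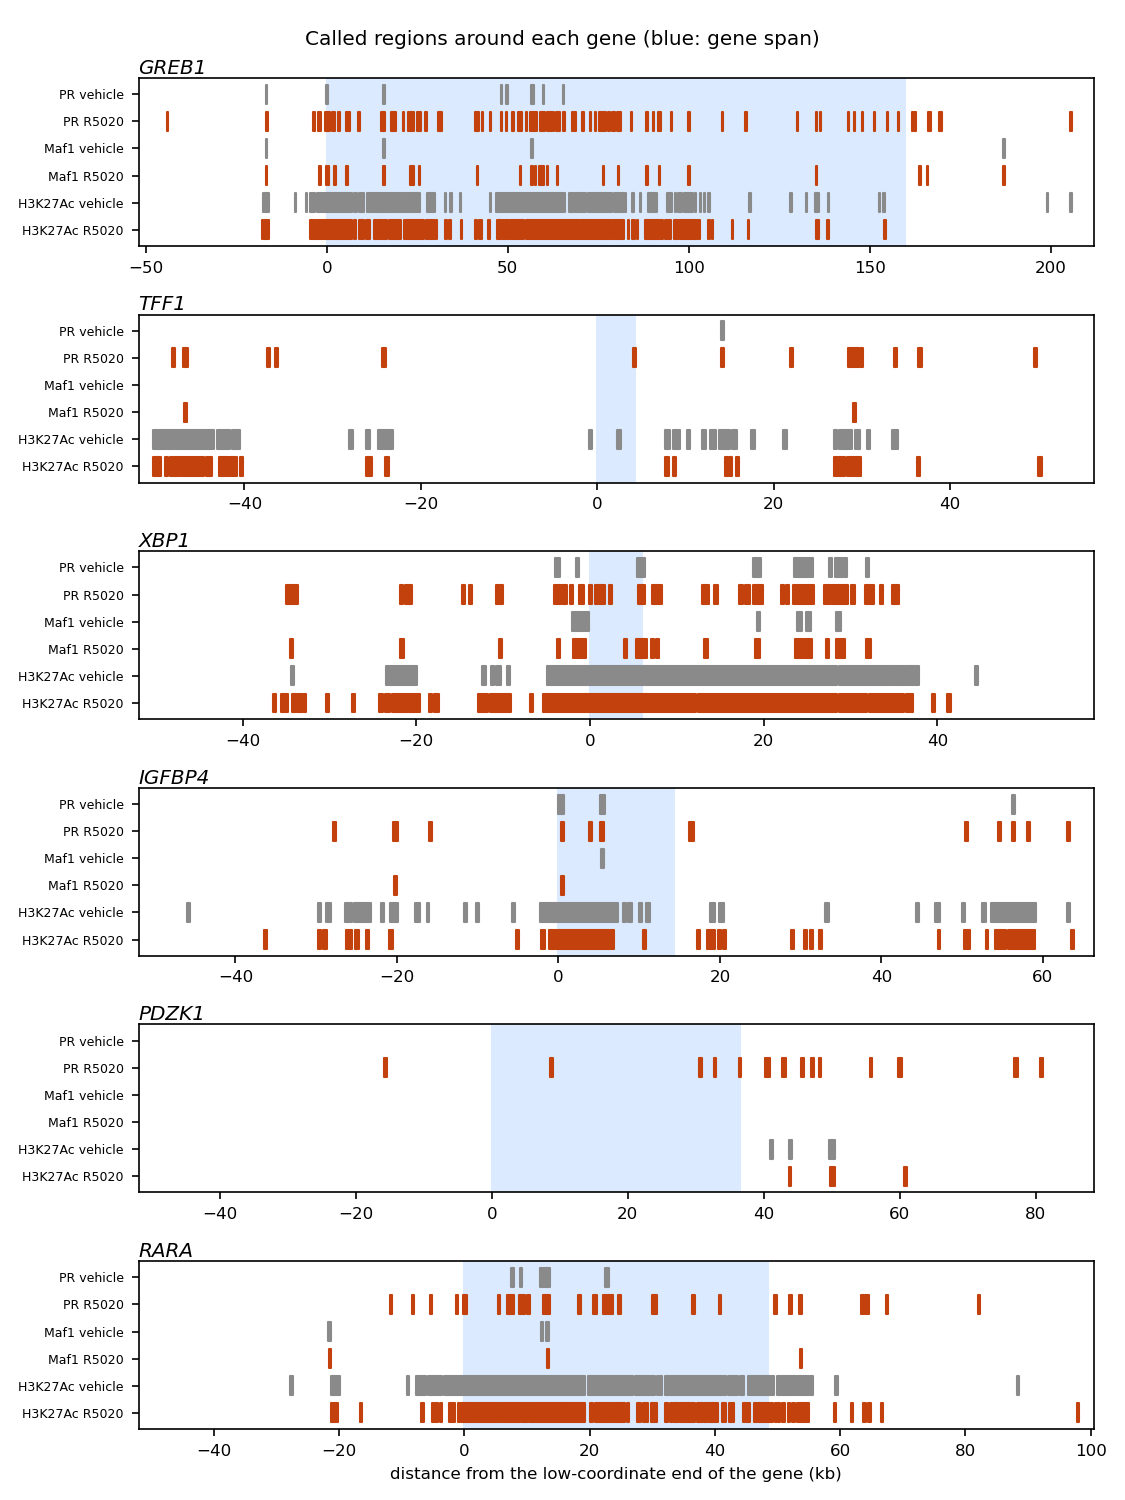
Called PR, Maf1 and H3K27Ac regions around each gene by distance from its low-coordinate end in kb (x axis), 1 row per list, vehicle in grey and R5020 in orange, with the gene span in blue; regions shorter than 0.35 kb are drawn that wide, and each panel has its own scale. PR and Maf1 regions crowd the H3K27Ac-rich stretches of GREB1 and XBP1, while at PDZK1 the PR regions lie in a window with 3 H3K27Ac regions per treatment.

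All 27 vehicle PR regions lay on vehicle H3K27Ac (100%, interval 87.5 to 100), against 93.0% (92.3 to 93.6) of the vehicle PR regions near any protein-coding gene. Of the 166 R5020 PR regions, 111 lay on sequence already under H3K27Ac with vehicle (66.9%, 59.4 to 73.6), against 29.1% (28.8 to 29.3) near any protein-coding gene. The windows of the 6 genes also hold more H3K27Ac: the median share of a window covered with vehicle was 26.9%, against 4.12% over all genes. Of the 141 R5020-only PR regions, 86 lay on vehicle H3K27Ac, 9 on H3K27Ac found with R5020 alone and 46 on none. These are 61.0%, 6.38% and 32.6%, against 26.5%, 6.92% and 66.5% near all protein-coding genes. Their median folds were 8.75, 13.9 and 5.15, in the same order as the 7.10, 9.73 and 5.50 near all genes. The 46 came mainly from GREB1 (19) and PDZK1 (13), and XBP1 had 2.

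The acetylated sequence itself differed in direction between the genes. H3K27Ac covered 76.7 kb with vehicle and 80.3 kb with R5020 near GREB1, and 47.9 and 54.3 kb near XBP1. It covered 60.9 and 48.5 kb near RARA, 27.7 and 21.5 kb near IGFBP4, and 20.9 and 13.4 kb near TFF1. The covered length was thus shorter with R5020 at 4 of the 6 genes, PDZK1 included, and over all protein-coding genes with vehicle H3K27Ac it was shorter for 54.2%. A ratio of R5020 to vehicle length under 0.8 was found at 3 of the 6 genes (TFF1 0.642, IGFBP4 0.774 and RARA 0.796) and at 21.7% of all genes, whose median ratio was 0.974. IGFBP4 and RARA lie close to that line: with rows within 500 bp joined TFF1 alone was under it, with ratios of 0.834 at IGFBP4 and 0.849 at RARA. Within 10 kb the 3 genes under it were TFF1, PDZK1 (0.483) and RARA, and within 100 kb they were TFF1 and RARA. With equal numbers of top regions PDZK1 made 4. The PDZK1 ratios rest on short lengths: 0.627 kb with vehicle and 0.303 kb with R5020 within 10 kb, and 1.49 and 0.735 kb with equal numbers. Among all genes the TFF1 ratio stood at percentile 8.87, IGFBP4 at 18.8 and RARA at 21.2. No member had a ratio over 1.2, found at 22.8% of all genes. In the other lists the ratio was under 0.8 at 5 of the 23 estrogen-responsive genes (AREG, CXCL12, PGR, RERG and TFF3) and at 0 of the 6 progestin-responsive genes, of which FKBP5, TSC22D3 and ZBTB16 had a ratio over 1.2. TFF3 lies in the TFF1 window, so these 2 genes share regions.

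**Figure D5:**
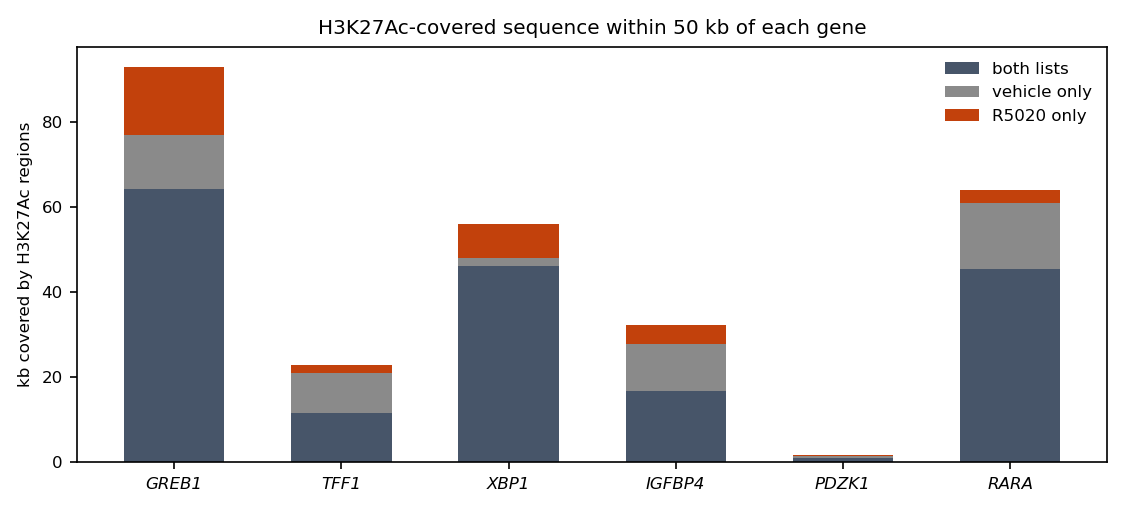
Sequence within 50 kb of each gene covered by H3K27Ac regions in kb (y axis), split into sequence covered in both lists (dark), with vehicle only (grey) and with R5020 only (orange). Vehicle-only sequence exceeds R5020-only sequence at RARA, IGFBP4, TFF1 and PDZK1, and the reverse holds at GREB1 and XBP1.

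The number of H3K27Ac regions did not follow the covered length. It was 55 and 65 at GREB1, 12 and 23 at XBP1, 24 and 48 at RARA, 26 and 26 at IGFBP4, 22 and 22 at TFF1 and 3 and 3 at PDZK1, 141 and 186 in all. More regions with R5020 were found at 3 of 6 genes and at 56.0% of all protein-coding genes. Wide regions were divided differently in the 2 lists: the widest was 33.4 kb with vehicle and 17.4 kb with R5020 at XBP1, and 22.5 and 5.77 kb at RARA. When regions within 500 bp were joined, the totals were 89 and 87. The share of vehicle-covered sequence also covered with R5020 was 96.5% at XBP1, 83.6% at GREB1, 74.5% at RARA, 63.3% at PDZK1, 60.6% at IGFBP4 and 55.4% at TFF1.

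With vehicle, Maf1 was called at the strongest vehicle PR sites of 4 of the 6 genes (GREB1, XBP1, RARA and IGFBP4). At TFF1 and PDZK1 no vehicle Maf1 region was called. The 3 highest-ranked R5020-only PR regions of GREB1 had Maf1 with R5020 and not with vehicle. Of all 62 such PR regions at GREB1, 15 had R5020 Maf1 (24.2%) and 0 had vehicle Maf1. Near all protein-coding genes these shares were 8.9% and 0.581%, so the lack of vehicle Maf1 is close to the background. There were 13 vehicle and 49 R5020 Maf1 regions over the 6 windows. By gene they numbered 4 and 26 at GREB1, 5 and 16 at XBP1, 3 and 3 at RARA, 1 and 2 at IGFBP4, 0 and 2 at TFF1 and 0 and 0 at PDZK1. A vehicle Maf1 region lay near 4 of the 6 genes and 26.5% of all protein-coding genes. More Maf1 regions with R5020 were found at 4 of the 6 and at 67.7% of all genes, so that count is near the background. When the 3049 regions of highest -log10 q were taken from both lists, the windows held 13 and 17.

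All 7 vehicle PR regions with a fold of at least 20 had a vehicle Maf1 region over them, against 3 of the 20 weaker ones. Over the whole list the same split was 94.1% of 101 regions (87.6 to 97.2) and 23.4% of 6562 (22.4 to 24.4), which is the same direction. The vehicle Maf1 folds at the 7 sites ran from 6.03 at IGFBP4 to 10.4 at GREB1, with 8.21 at the main RARA site. The highest vehicle Maf1 fold of the 6 windows, 11.0 near XBP1, lay over a weaker vehicle PR region, of fold 4.07. A Maf1 region of fold 9.59 in the GREB1 window, at E2F6, lay over a vehicle PR region of fold 6.61. With R5020, 40 of the 166 PR regions had a Maf1 region over them (24.1%), against 11.4% near all genes. Most were at GREB1 (20 of 70, 28.6%) and XBP1 (14 of 30, 46.7%). There were 2 of 13 at TFF1 and 2 of 12 at IGFBP4. RARA (2 of 27, 7.41%) and PDZK1 (0 of 14) were below the share near all genes. Over the 6 windows the median PR fold was 37.7 with and 6.26 without Maf1, and 24.9 and 5.68 near all genes. Conversely 44 of the 49 R5020 Maf1 regions lay on an R5020 PR region (89.8%), against 83.3% near all genes. The strongest R5020 Maf1 region of the set was at GREB1 (chr2:11539397-11540017, fold 28.9), over the vehicle PR site of fold 39.2.

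IGFBP4 had a vehicle Maf1 region at its main PR site and none there with R5020. Its vehicle Maf1 region (chr17:40448716-40448975, fold 6.03) lay under the PR region of fold 34.2, and no R5020 Maf1 region overlapped it although PR was called there with R5020. Both R5020 Maf1 regions of the window were elsewhere, over the R5020-only PR region before the gene (fold 4.57) and 0.401 kb past its start (fold 3.21). A second vehicle-only Maf1 region lay inside RARA (fold 3.08), beside the main RARA site, which had Maf1 in both treatments (8.21 and 7.90). Vehicle-only Maf1 regions lay near these 2 of the 6 genes and near 2.81% of all protein-coding genes. A gene can be called so only with a vehicle Maf1 region, which 4 of the 6 and 26.5% of all genes had. Of the 7 vehicle PR regions with a fold of at least 20, 6 had an R5020 Maf1 region over them. Over the whole list that held for 80.2% of 101, so a strong site without one is not unusual.

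Of the polymerase III targets only POLR3G was called, near 5 of the 6 genes (not PDZK1) in both treatments. A POLR3G region lay near 66.9% of all protein-coding genes with vehicle and 62.1% with R5020. The POLR3G lists held 58424 and 46875 regions, against at most 1104 and 1173 for POLR3A, Brf1, POLR3C and POLR3GL. POLR3A, Brf1, POLR3C and POLR3GL had 0 regions in all 6 windows in both treatments. A region of those lists lay near 3.66%, 2.27%, 5.86% and 2.24% of all protein-coding genes with vehicle and near 3.99%, 6.05%, 5.98% and 1.75% with R5020, so 0 of 6 is close to the background. POLR3G regions numbered 130 with vehicle and 87 with R5020. The totals were 87 and 60 within 10 kb, 37 and 21 at a -log10 q of at least 5, 114 and 87 with equal numbers of top regions, 91 and 63 with rows within 500 bp joined, and 1 and 1 at a fold of at least 5. By gene they were 58 and 20 at RARA, 32 and 17 at IGFBP4, 5 and 2 at TFF1, 18 and 27 at GREB1, 17 and 21 at XBP1 and 0 and 0 at PDZK1. Fewer regions with R5020 were found at 3 of 6 genes and at 43.3% of all genes, and more at 2 of 6 and at 17.6%. With rows joined XBP1 also had fewer, and at a fold of at least 5 no gene did. The POLR3G folds were low, at most 5.46 with vehicle and 5.04 with R5020. One of the 3 POLR3G libraries titled R5020 is tagged as ethanol in the labels, and the titles were used, so the direction rests on them.

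Genes with the most similar counts over the 16 lists were found by the distance between their log2(1 + count) values. For each member 2 genes were kept, with ties taken in order of symbol. Other genes at a distance of 0 from PDZK1 may therefore be left out. They were MIPOL1 (distance 1.46) and TTC6 (1.49) for GREB1, IRF2BP2 (0.97) and FOXA1 (1.2) for XBP1, CLDN3 (1.00) and ABHD11 (1.01) for RARA, UPK3BL2 (0.76) and FN3KRP (0.81) for IGFBP4, GFPT2 (0.72) and WSB1 (0.73) for TFF1, and ADAMTS6 and AGTPBP1 (both 0) for PDZK1. The nearest gene to XBP1 by this measure, IRF2BP2, had 7 vehicle and 29 R5020 PR regions. MIPOL1, TTC6 and FOXA1 all lie on chromosome 14, and genes with close positions can share regions.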

How the data were processed

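ChIP-seq libraries of 8 antibodies in T47D cells (3 per antibody and treatment, plus 6 inputs) were grouped by title; for 4 libraries titled R5020 (2 of POLR3C, 1 of POLR3G, 1 of POLR3GL) the treatment tag says ethanol. Per the submitters' processing notes, cutadapt, Bowtie2, MACS2 and hg38 were used; versions, settings, controls and how replicates were combined are not given in the sources used here. The authors deposited 16 narrowPeak lists. For each peak the authors deposited a score, a fold enrichment (a ratio over background), the -log10 of its q-value, and the summit position. The labels do not say whether replicates are separate cultures.

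Rows on chromosomes 1 to 22, X and Y with at least 1 bp within 50 kb of a RefSeq GRCh38.p14 gene span were counted; regions were shared at 1 bp or more. The table gives no exons, and the strand came from the promoter table. All 20033 protein-coding genes were counted alike as background. The named regions were the highest by -log10 q in each list and window, the 3 highest R5020-only PR regions, the highest treatment-only H3K27Ac regions and the regions at gene starts; regions of fold 20 or more were added after the values were seen. The members, the gene lists and the tests were chosen with earlier results of these data known. The depth of the libraries is unknown and there is no replicate error, so no p-value is given; intervals are Wilson 95%. Counting steps were tested on simulated regions. Alternatives were windows of 10 and 100 kb, a minimum of 5 on -log10 q or on the fold, equal numbers of top regions, joining rows within 500 bp and 50% of both regions in common. Input libraries were not used here, and 1 marker gene is not reported here. Computations used Python 3.11.15, pandas 2.3.3, numpy 2.4.6, scipy 1.17.1 and matplotlib 3.10.9.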

Additional observations from a re-analysis of the deposited data

How the results depend on the processing

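With equal numbers of top regions the difference in PR regions (R5020 minus vehicle) over the 6 windows was -4 in place of 139, with -4 at IGFBP4, -4 at RARA and -1 at XBP1; the Maf1 difference was 4 in place of 36, with -1 at IGFBP4; the H3K27Ac difference was 17 in place of 45; and 3 of 6 genes had an R5020-only PR region. This alternative removes regions from the longer list by construction. With a fold of at least 5 the H3K27Ac difference was 14, and the Maf1 difference 21, with -1 at IGFBP4. Within 10 kb the H3K27Ac difference was 27, and within 100 kb the covered H3K27Ac near PDZK1 was 0.503 kb longer with R5020. With rows within 500 bp joined the H3K27Ac difference was -2, with -6 at GREB1, and the POLR3G difference at XBP1 was -2. The cause was not tested where none is given. In all other alternatives the 4 planned results stayed within 1.5 times of the reported value in the same direction. Of 186 other values under the alternatives, 90 stayed within that range, 88 moved beyond it or to or from 0, and 8 reversed (given above). The number of genes with a vehicle PR fold of at least 20 was 4, and 3 to 5 under the alternatives, all added after seeing the data: 3 within 10 kb, which leaves out the XBP1 regions, and 5 with a line at 10, which adds TFF1.

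No paired analysis was possible because each antibody and treatment has 1 list with no replicate number, and for the same reason no replicate was left out. The planned ratio of the top fold between treatments was not run, since folds are relative to their own list. Depth, which the lists do not hold, limits every count.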
